A study of Caenorhabditis elegans with 2 samples.

Results

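The microRNA genes of Caenorhabditis elegans outside the mir-51 family were examined for peaks of CEH-24-GFP in late embryos. They comprised 255 genes of biotype miRNA in the Ensembl annotation of WBcel235, out of 261 microRNA genes in all, with mir-51 to mir-56 set aside. Of these 255, 127 genes had the summit of a pooled peak within 1000 bp and are the members described here. The members were thus chosen by the pooled peak list, so their pooled signal values are given as a description with no test. All 255 genes also carried a microRNA entry in RefSeq. Of the members, 67 lay outside protein-coding genes (intergenic), 53 in their introns and 7 overlapped an exon. CEH-24 was recovered from strain OP673, genotype unc-119 (tm4063) III; wgIs673, whose transgene adds GFP and FLAG at the C terminus of the protein. Chromatin immunoprecipitation and sequencing used an antibody against GFP on whole organisms of mixed sex, 5 h after bleaching, and gave 2 biological replicates in 1 group. No untagged or second group is among the samples, and a whole-organism sample does not show which cells hold a bound site. Binding in few cells and weak binding in many cannot be told apart.

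A microRNA is cut from the hairpin of a longer primary transcript, first by Drosha with its partner Pasha in the nucleus and then by Dicer in the cytoplasm. An Argonaute protein holds the mature strand, and the bases after its first, the seed, pair with sites in target mRNAs. Some intronic microRNAs, called mirtrons, are instead released by splicing and skip the Drosha cut. Because the primary transcript can begin far upstream of the hairpin, a regulatory site need not lie next to the annotated gene. CEH-24 is an NK-2 class homeodomain factor known in C. elegans from a pharyngeal muscle cell, vulval muscles and sublateral motor neurons.

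The sequences at which the results turn are shown first, read from the RefSeq genome and annotation of WBcel235. The mature strands of the mir-58 group, which is related to Drosophila bantam, are printed with the seed, bases 2 to 8, in capitals. They are shown because mir-58.1 had the highest pooled signal of the 127 members while its relatives ranged from a peak far lower to none.
mir-58.1: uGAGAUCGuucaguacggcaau
mir-80: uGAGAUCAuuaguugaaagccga
mir-58.2: aGAGAUCAaccauugagauccaa
Y73B6A.17: aGAGAUCAggcaauagguucaaa
mir-81: uGAGAUCAucgugaaagcuagu
mir-82: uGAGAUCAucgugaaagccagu
The seed of mir-58.1 was not identical to that of the other 5. The mir-35 group, embryonic microRNAs needed for embryo development, shares the seed CACCGGG, and 7 of its 8 genes shared 1 peak in their windows. The first 3 genes of that cluster and the solitary mir-42, which had no pooled peak, are shown the same way.
mir-35: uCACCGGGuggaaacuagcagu
mir-36: uCACCGGGugaaaauucgcaug
mir-37: uCACCGGGugaacacuugcagu
mir-42: uCACCGGGuuaacaucuacaga
Members of the let-7 group, which time the larval stages, are shown because they share a seed and differed in having a peak.
let-7: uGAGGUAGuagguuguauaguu
mir-241: uGAGGUAGgugcgagaaauga
mir-48: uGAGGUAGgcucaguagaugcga
mir-84: uGAGGUAGuauguaauauuguaga
The remaining microRNAs near pooled peaks of q-value 0.05 or less for which a sequence is printed have seeds unlike each other.
mir-62: uGAUAUGUaaucuagcuuacag
mir-4921: uGUGCCACucacuuucuugcag
mir-4923.1: aAAAGAGAgccuuuuguuuacag
mir-5549: uCAUGUUGguuuuuuguuggu
mir-5550: cCCCGCCCaagauuucauuugc
mir-4936: uGCUUUGUggcuuugcuggua

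Genomic sequence is shown for the peaks that the text returns to. The stretch chrIV:3233036-3233335 (WBcel235, plus strand) runs from the pooled peak at mir-58.1, with its summit at base 100 of the printed stretch, to the end of the mature strand. Capitals mark the mature arms.
mir-58.1: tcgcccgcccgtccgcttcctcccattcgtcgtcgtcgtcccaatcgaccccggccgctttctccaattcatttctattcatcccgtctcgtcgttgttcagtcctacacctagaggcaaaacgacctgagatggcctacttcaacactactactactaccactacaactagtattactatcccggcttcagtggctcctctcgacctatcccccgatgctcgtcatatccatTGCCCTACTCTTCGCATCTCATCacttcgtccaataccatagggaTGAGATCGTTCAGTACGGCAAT
The stretch chrIII:8865285-8865584 (minus strand) does the same for mir-80, with the summit at base 110 and the arms in capitals.
mir-80: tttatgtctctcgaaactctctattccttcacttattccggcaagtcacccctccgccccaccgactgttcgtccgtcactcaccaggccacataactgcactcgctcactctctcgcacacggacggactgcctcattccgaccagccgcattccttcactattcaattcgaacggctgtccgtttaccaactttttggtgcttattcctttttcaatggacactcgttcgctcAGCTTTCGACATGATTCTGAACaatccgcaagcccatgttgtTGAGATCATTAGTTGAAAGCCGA
The stretch chrII:11537617-11537916 (plus strand) lies around the summit, at base 150, of the peak over the mir-35 cluster. Its capitals mark the arms of mir-35, mir-36 and mir-37.
mir-35 cluster: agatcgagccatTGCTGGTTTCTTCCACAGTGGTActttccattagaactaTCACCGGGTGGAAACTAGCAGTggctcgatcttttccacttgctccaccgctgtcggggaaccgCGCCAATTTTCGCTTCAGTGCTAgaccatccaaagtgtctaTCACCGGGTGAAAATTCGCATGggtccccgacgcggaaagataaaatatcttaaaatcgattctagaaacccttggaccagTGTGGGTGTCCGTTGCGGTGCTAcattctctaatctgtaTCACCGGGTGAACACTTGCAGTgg
The window chrX:12693214-12693414 (plus strand) holds the summit of the peak near mir-62 at its centre, with a match to AAGTG, the core letters of the NK-2 class site, in capitals. The longer site TNAAGTG is not in this window.
mir-62: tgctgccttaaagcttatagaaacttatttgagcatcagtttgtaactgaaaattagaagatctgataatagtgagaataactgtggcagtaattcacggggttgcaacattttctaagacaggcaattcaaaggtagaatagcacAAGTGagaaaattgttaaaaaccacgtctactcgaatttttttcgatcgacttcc
The window chrX:1880727-1880927 (minus strand) is centred on the peak assigned to mir-4921 and mir-4923.1. Its summit lies in a tRNA gene, and capitals mark a match to GTTCGANNC, a strict form of the B box inside tRNA genes.
mir-4921 and mir-4923.1: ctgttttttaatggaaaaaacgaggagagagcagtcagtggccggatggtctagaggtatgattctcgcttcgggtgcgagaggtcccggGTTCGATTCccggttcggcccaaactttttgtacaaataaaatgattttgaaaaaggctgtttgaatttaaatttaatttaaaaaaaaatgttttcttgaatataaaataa

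As a class, these microRNA genes had a pooled peak about as often as other genes. A pooled summit lay within 1000 bp of 127 of 255 (49.8%, Wilson 95% interval 43.7 to 55.9), against 55.7% of all 46890 annotated nuclear genes. Genes differ in length, with a median of 95 bp for these microRNA genes and 196 bp over all genes. For a stretch of 95 bp placed at every position of the nuclear genome the share was 44.9%, so a peak in the window is by itself close to what position alone gave. The pooled list is relaxed by design, and most of its 30000 entries are not called binding sites.

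Only 8 of 255 microRNA genes had a pooled peak with a deposited q-value of 0.05 or less in the window. This is 3.14% (Wilson 95% interval 1.60 to 6.07), against 2.24% of all genes. Peaks of the optimal list, which passed the authors' threshold on the irreproducible discovery rate, were found at 4 genes (1.57%, 0.61 to 3.96), against 1.58% of all genes. Both shares were near those of all genes. For a stretch of 95 bp placed at every position of the nuclear genome the shares were 0.828% and 0.550%. These lie below the intervals of the microRNA genes, and the difference was not tested. The count of 8 fell to 2 with replicate 1 alone, was 7 with replicate 2 alone, and was 3 with a window of 500 bp. The replicates did not give the same genes. The 2 were mir-5550 and mir-4936, whose replicate 2 q-values were 0.584 and 0.318, and the 7 included mir-2, which is not among the 8. At the 4 genes with an optimal peak the replicate 1 q-values were 0.0526 (mir-58.1), 0.163 (mir-4921 and mir-4923.1) and 0.469 (mir-62). Genes for tRNAs had a peak of q-value 0.05 or less in 25% of 612 cases (21.7 to 28.6) and genes for snoRNAs in 15.03% of 346 (11.6 to 19.2), with intervals that do not meet that of the microRNA genes. The piRNA genes, which are also short, had 0.228% of 15363, an interval of 0.164 to 0.317 that lies below it. Among protein-coding genes the share was 2.66%. All intervals cover counting error only, and neighbouring genes that share a peak are not independent.

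**Figure D1:**
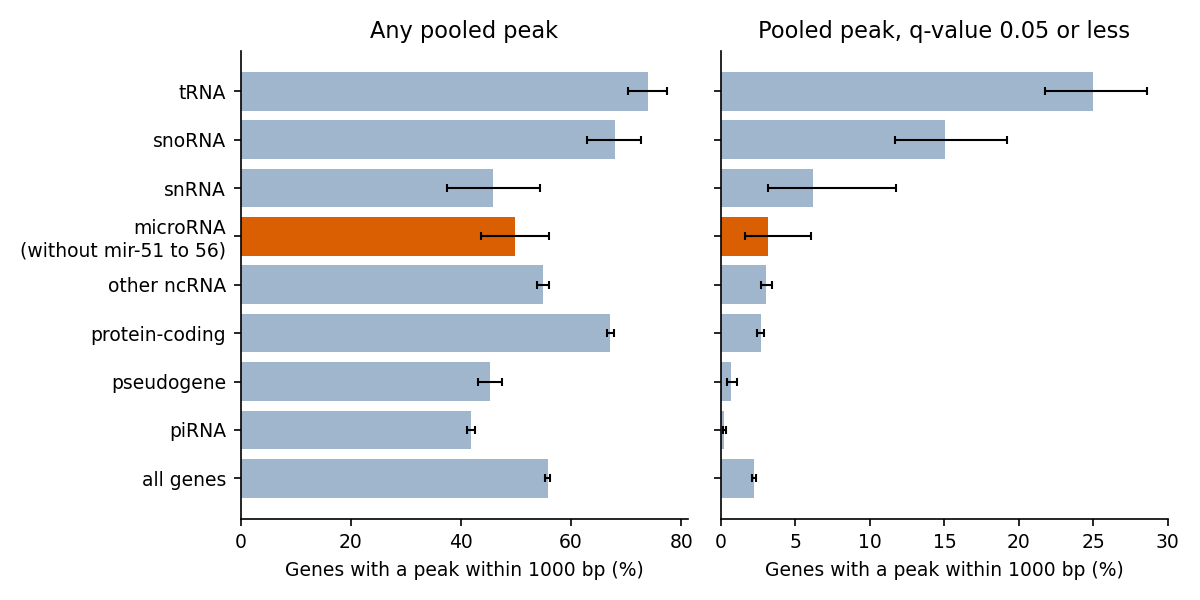
Share of genes of each kind with a pooled peak within 1000 bp (left) and with a pooled peak of q-value 0.05 or less (right), in percent, with Wilson 95% intervals as bars. The microRNA genes, in orange, stand at 49.8% and 3.14%, close to all genes at 55.7% and 2.24%, while tRNA genes reach 74.02% and 25%.

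The highest pooled signal per member had a median of 36.7, with quartiles of 30.9 and 53.4 and a range from 25.5 to 121.8. Over all genes with a pooled peak the median was 38.5. It was 59.8 for tRNA genes and 48.7 for snoRNA genes. The signal value is the authors' own and has no stated scale, and within the pooled list a q-value of 0.05 was reached from a signal of 85.7 upward. Of the members' peaks, 14 ranked among the 1000 highest of the 30000 in the list, 70 (55.1%) ranked beyond 10000, and 94 had a q-value above 0.5. Among members the q-value passed 0.5 between ranks 3085 and 3315, so most of the whole list lies above 0.5 too. Over the whole list the median signal was 34.7 (quartiles 29.4 and 43.02), below that of the members. Each member took the highest peak of its window, which raises its value, so the medians of the members and of the whole list are not alike measures. The median of 38.5 over all genes was taken in the same way as the 36.7 of the members. The counts by rank and by q-value are given without the share over all genes.

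**Figure D2:**
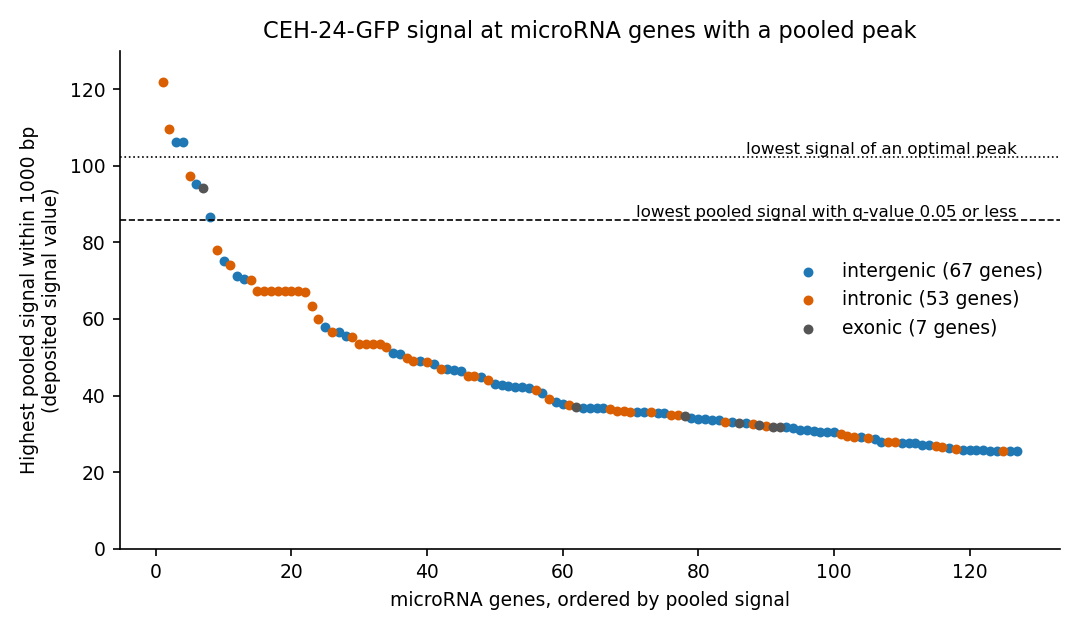
Highest deposited pooled signal within 1000 bp of each of the 127 members, ordered from high to low and coloured by position relative to protein-coding genes. The dashed line marks the lowest pooled signal with a q-value of 0.05 or less (85.7), above which 8 genes lie, and the dotted line the lowest signal of an optimal peak (102.2), above which 4 lie.

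The highest member was mir-58.1 (WBGene00003286, chromosome IV, 3233254 to 3233350, plus strand), an abundant microRNA of the mir-58 group, in an intron of Y67D8A.2 on the same strand. Its pooled signal was 121.8, against 58.97 for replicate 1 and 63.9 for replicate 2. The pooled peak ranked 196 with a q-value of 0.00767. Replicate values come from their own lists, whose medians were 22.1 and 21.6, and their scale differs from that of the pooled list, whose median was 34.7. The peak was in the optimal list. Its summit lay 119 bp upstream of the hairpin and 179 bp from the mature strand printed above, with no coding start within 1000 bp and no gene for a tRNA, snoRNA, snRNA or rRNA within 250 bp. A lower pooled peak of 70.3 had its summit 152 bp downstream of the hairpin's 5′ end, again with a peak in each replicate. Among the 8 members at q-value 0.05 or less, mir-58.1 alone had a summit within 250 bp and neither of these kinds of gene in these windows. An annotated ncRNA gene, Y67D8A.6, lay 27 bp from the summit, nearer than the hairpin, and to which of them the peak belongs was not tested.

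The next was mir-62 (chromosome X, 12692608 to 12692665), a mirtron of ugt-50, which encodes a UDP-glucuronosyltransferase. The pooled signal was 109.6, with 36.2 in replicate 1 and 65.3 in replicate 2. The latter was the highest replicate 2 value of any member, while the replicate 1 value was the lowest among the 8 members at q-value 0.05 or less. The summit was 649 bp downstream of mir-62, past the exon that follows it and inside a further intron of ugt-50. No coding start lay within 1000 bp. A lower pooled peak, of 58.004, had its summit 408 bp upstream of mir-62.

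The intergenic pair mir-4921 and mir-4923.1 (chromosome X, 1879979 to 1880038 and 1879876 to 1879936) shared 1 optimal peak. Its signal was 106.1 in the pooled list, 46.9 in replicate 1 and 60.6 in replicate 2. The summit was 789 bp and 891 bp downstream of the pair, inside a tRNA gene on the other strand, where the GTTCGANNC match printed above lies. Of the runs of 31 bases in that window, 70.8% occurred once in the genome. The neighbours mir-1018, mir-4925 and mir-4923.2 lay beyond reach of this peak, and their own shared peak had a signal of 30.5. At this locus the high signal was therefore nearer to the tRNA gene than to any microRNA gene, and its source was not tested.

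**Figure D3:**
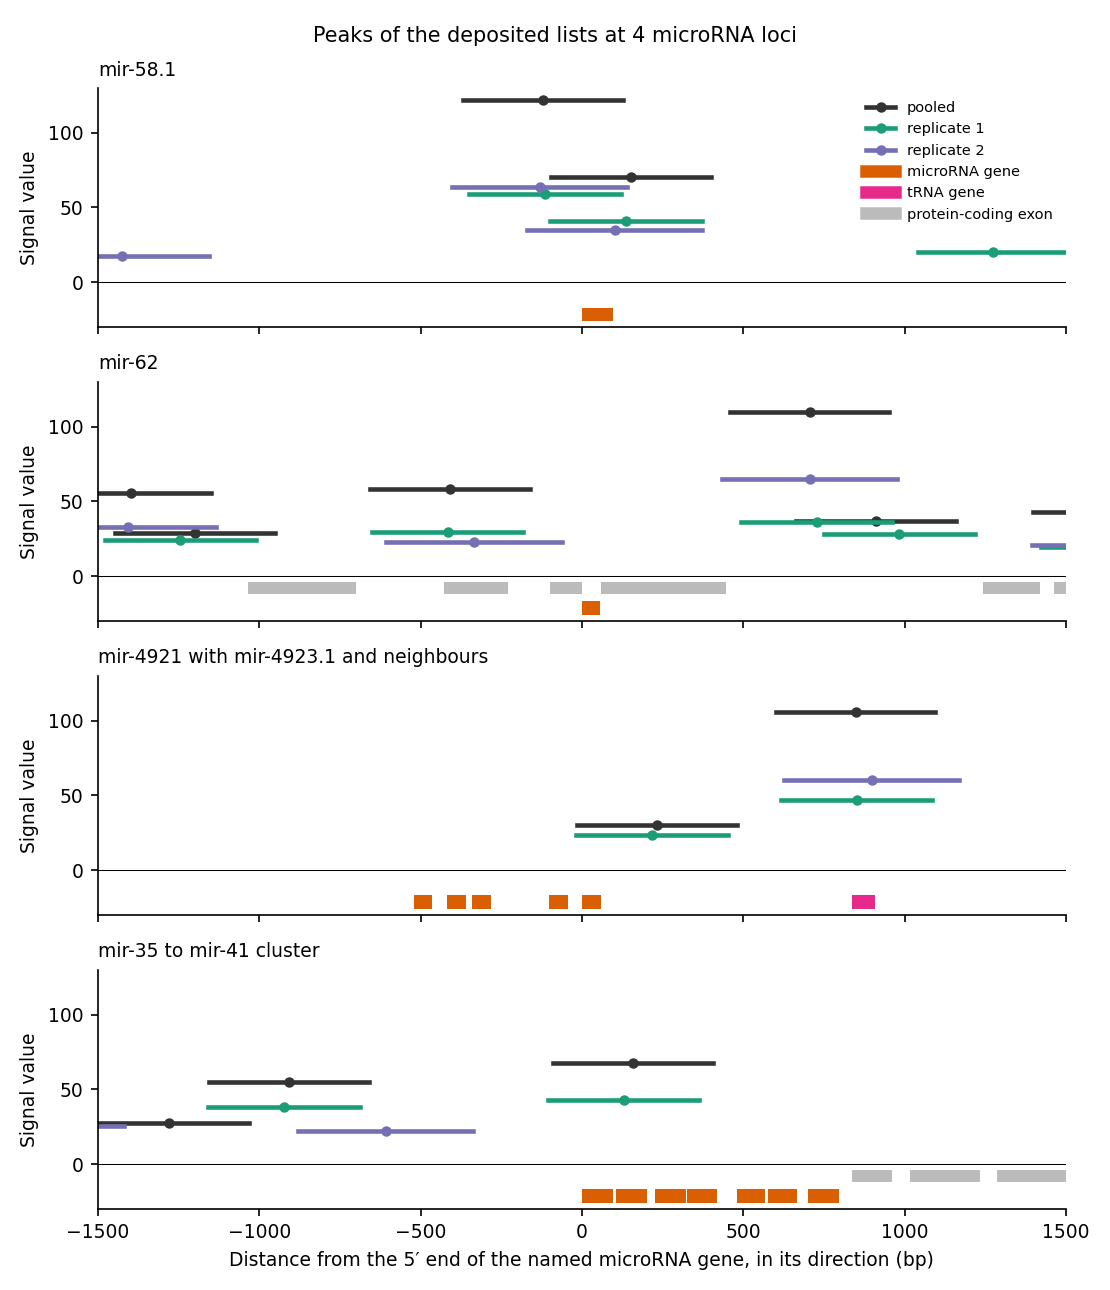
Peaks of the pooled list and of each replicate around 4 microRNA loci, drawn at their deposited signal value (vertical axis) against distance in bp from the 5′ end of the named gene, in its direction. Lines span each peak and dots are summits; the high pooled peak lies at the hairpin of mir-58.1 (119 bp upstream) and in the mir-35 cluster, but 706 bp along this axis at mir-62, past the gene's other end, and in a tRNA gene at mir-4921.

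The other members at q-value 0.05 or less had peaks outside the optimal list and near starts of protein-coding genes. At mir-5550 (chromosome IV, on the strand opposite its host kgb-1, a MAP kinase gene) the signal was 97.4 pooled, 61.2 in replicate 1 and 26.3 in replicate 2, with the summit 925 bp downstream and 70 bp from the nearest of the starts of T07A9.12 and kgb-1. At mir-5549 (chromosome III) it was 95.2, 60.7 and 41.2, with the summit 81 bp upstream of the hairpin and 87 bp upstream of the nearest start, between rfc-4, a replication factor C subunit gene, and eef-1A.1, a translation elongation factor gene. At mir-354 (chromosome I), which overlaps an exon of the ribosomal protein gene rps-20, it was 94.2, 53.7 and 40.7, with the summit 773 bp upstream and 161 bp from the nearest of the starts of rps-20 and ekl-4. In all 3 the replicate 1 value was the larger, the opposite order to mir-62. At mir-4936 (chromosome III), the summit lay inside the hairpin and 235 bp from the nearest of the starts of Y53G8AL.4 and nduf-9, with values of 86.7, 62.5 and 32.01. The value of 62.5 was the highest replicate 1 value of any member. In total, 4 of the 8 members at q-value 0.05 or less had a coding start within 1000 bp, 2 had a tRNA gene within 250 bp, and 2 had neither. The 2 with a tRNA gene share 1 peak. Of all pooled peaks, 44.4% had a coding start within 1000 bp. A gene for a tRNA, snoRNA, snRNA or rRNA lay within 250 bp of 2.08% of all pooled peaks. These shares are over 30000 peaks of any q-value, of which 420 had a q-value of 0.05 or less. The shares among those 420 are not given here, so the counts of the 8 have no background at their own threshold. The 8 members have 7 separate peaks, while the shares are per peak.

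Below that threshold, the highest intronic members were mir-2 in ppfr-1 (pooled 78.1, replicate 1 30.8, replicate 2 50.6, summit 353 bp upstream) and F09A5.15. The latter is annotated as cel-mir-55b on the strand opposite mir-55, so its peak (74.05, 36.2 and 40.6) is the one that mir-54, mir-55 and mir-56 have, and it is no separate site. The mir-2216 gene in gmps-1 had 70.2 pooled, 41.5 in replicate 1 and 26.2 in replicate 2. Among intergenic members, mir-8194 had 75.1, with 46.3 and 30.8, and mir-248 had 71.3, with 33.4 and 35.4 and its summit 982 bp downstream. The mir-2207 peak was inside the hairpin at 57.97, with 35.2 in replicate 1 and none in replicate 2. None of these reached q-value 0.05 in the pooled list, while the replicate 2 peak at mir-2 had a q-value of 0.0259 in its own list.

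Within the mir-58 group the signal was high at mir-58.1 and lower at its relatives. At mir-80 the pooled signal was 56.6 with 33.2 in replicate 2 and no peak in replicate 1, and the summit was 108 bp upstream, a position like that at mir-58.1. The neighbours mir-58.2 and Y73B6A.17 (cel-mir-58c) shared a peak of 35.7, with 28.6 in replicate 1 and 24.2 in replicate 2, and mir-82 had 25.99. The replicate peaks in the window of mir-82, at 18.5 and 18.3, did not overlap that pooled peak. No pooled peak lay within 1000 bp of mir-81. No relative of mir-58.1 named here reached q-value 0.05 in the pooled list.

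The mir-35 cluster (mir-35 to mir-41, chromosome II, from 11537608 to 11538404) shared 1 pooled peak of 67.4 with a q-value of 0.194, which spanned its first genes. Its hairpins are on the strand opposite the host Y62F5A.9, and the summit fell inside mir-36. In replicate 1 the overlapping peak had 42.9. In replicate 2 no peak overlapped it, and the 21.8 found in the window of mir-35 to mir-38 belonged to a peak centred upstream of the cluster. The cluster peak was thus matched in replicate 1 and not in replicate 2. The 7 genes count as 7 members but as 1 peak. The eighth gene with this seed, mir-42, had no pooled peak and 25.9 in replicate 1. Another cluster with 1 shared peak was mir-64, mir-65, mir-66 and mir-229 in introns of gcn-1, with a pooled signal of 53.4.

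No gene of the timing pathway named here had a pooled peak at q-value 0.05 or less. The let-7 gene (chromosome X), annotated as a span of 1732 bp that includes more than the hairpin, had 32.97 pooled, 33.9 in replicate 1 and 25.2 in replicate 2, with the summit 929 bp upstream of the mature strand printed above. At mir-241 the values were 38.4 pooled and 38.3 in replicate 2, with none in replicate 1. No pooled peak lay near mir-48 or mir-84, and mir-84 had 22.6 in replicate 2 only. At lin-4, the founding member of the class, both replicates had a peak (21.7 and 25.4) while the pooled list had none, whose lowest entry is 25.5. Its relative mir-237 had 42.3 pooled and 32.5 in replicate 1, with a tRNA gene within 250 bp of the summit.

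Genes known for muscle and neurons were likewise below the threshold. At mir-1, the conserved muscle microRNA, the summit was inside the hairpin, with 70.4 pooled, 31.9 in replicate 1 and 33.2 in replicate 2 and a q-value of 0.152. Both replicates thus had a peak there, with q-values of 0.621 and 0.277 and ranks of 3871 and 2981 in their own lists. The 2 signal values come from separate lists with no stated scale. The mir-1 summit also lay inside an annotated noncoding RNA gene, T09B4.14. At mir-124, expressed in sensory neurons, the pooled signal was 44.1, with 26.01 in replicate 1 and none in replicate 2. At lsy-6, which sets the left and right identity of a pair of taste neurons, no list had a peak in the window, while mir-273, placed in the same circuit in earlier work, had 45.003 pooled and 43.8 in replicate 2. At mir-71, known for ageing and stress, the values were 46.95 pooled, 28.2 in replicate 1 and 38.98 in replicate 2, and at mir-228, found in glia, 33.8, 37.7 and 24.9. The replicate 1 peaks at mir-71 and mir-228 were others in the window and did not overlap the pooled peak. No list had a peak near mir-34, known for stress responses, or mir-235, known for arrest after hatching. Of the other genes known as mirtrons, mir-1018 had 30.5, and mir-1019 and mir-1020 had no pooled peak. In the annotation used here mir-1018 overlaps no protein-coding gene and counts as intergenic. Over 31 genes taken whatever their values, 21 had a pooled peak, 7 of which (mir-35 to mir-41) share 1 peak, and 2 of them, mir-58.1 and mir-62, reached q-value 0.05 in the pooled list. The shares over all genes were 55.7% and 2.24%.

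Intronic members had a higher median signal than intergenic ones, and much of the upper part came from shared peaks. Of 149 intergenic genes, 67 had a pooled peak (44.97%, Wilson 95% interval 37.2 to 52.98), and of 94 intronic genes 53 did (56.4%, 46.3 to 65.96). These intervals overlap. The median pooled signal was 35.5 in intergenic members (quartiles 29.8 and 45.7, highest 106.1) and 46.95 in intronic members (quartiles 34.9 and 67.1, highest 121.8). The 7 exonic members, of 12 genes, had a median of 32.97 and a highest value of 94.2. The members at q-value 0.05 or less were 4 intergenic, 3 intronic and 1 exonic. The ranges overlapped almost entirely, and no test was made because the signal chose the members.

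Among intronic genes, 37 of 67 on the strand of their host and 16 of 27 on the other strand were members, with medians of 44.1 and 65.3. The second value is carried by the mir-35 cluster, since 7 of the 16 share its peak. Of the genes counted as intergenic, 11 lay inside a noncoding RNA gene of over 1000 bp, 5 of them members, because only protein-coding hosts were counted. In all, 26 members shared 9 peaks, and the 127 members had 110 separate peaks.

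Replicate peaks were present near most members, but often in 1 list only. Replicate 1 had a peak in the window of 92 members (median 28.6, range 16.7 to 62.5) and replicate 2 in that of 94 (median 24.9, range 16.3 to 65.3). Both had one at 65 members, replicate 1 alone at 27, replicate 2 alone at 29, and neither at 6. Of all 255 microRNA genes, 48.2% had a peak in the window in replicate 1 and 48.6% in replicate 2. The shares of all genes were 59.7% and 51.1%. How often all pooled peaks are matched in both replicates was not computed, so this overlap cannot be called particular to the members. In their own lists, peaks at q-value 0.05 or less lay near 2 members in replicate 1 and near 6 in replicate 2. Over all 255 microRNA genes these shares were 0.784% and 2.75%, against 1.28% and 3.14% of all genes, so neither was above the background. The whole replicate 2 list also has more such peaks, 729 against 228. Of the 110 separate pooled peaks, 48 overlapped a peak of each replicate, and Spearman's rho of the replicate values over these was 0.37. This is a description across peaks that share the same 2 libraries and 1 control, with no p-value, and the pooled list was itself made from these replicates.

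**Figure D4:**
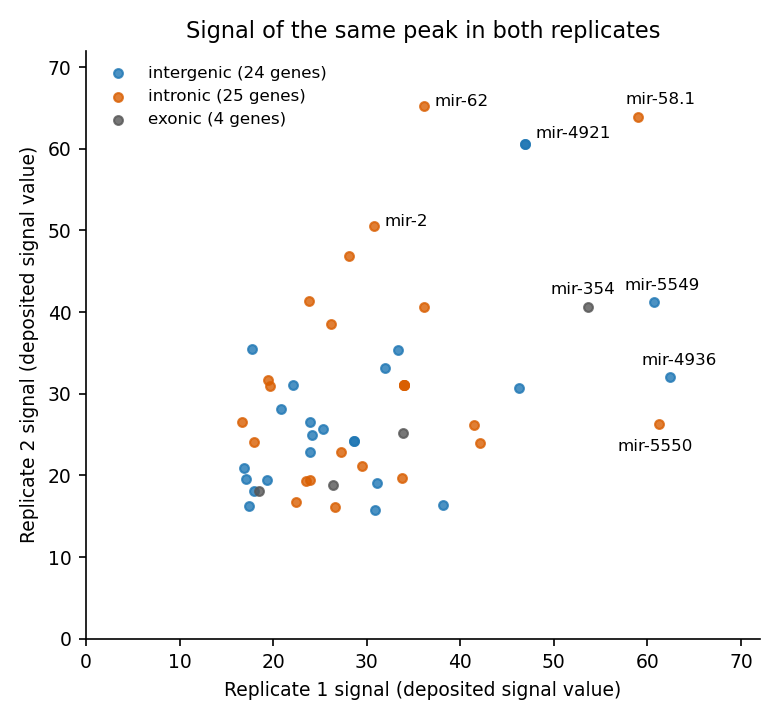
Deposited signal of the overlapping peak in replicate 1 (horizontal) and replicate 2 (vertical) for the 53 members whose pooled peak overlaps a peak of each replicate. Points of genes that share a peak coincide; mir-58.1 is high in both, mir-62 mainly in replicate 2, and mir-5550 and mir-4936 mainly in replicate 1.

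Summits lay on both sides of the hairpins. The highest pooled summit was upstream of 60 members (median 391 bp), downstream of 52 (median 525 bp) and inside 15. Inside the 255 genes the density was 0.648 summits per kb (exact Poisson 95% interval 0.37 to 1.05), from 16 summits, against 0.299 over the nuclear genome. The same count was 3.12 per kb in tRNA genes, 0.759 in snoRNA genes, 0.587 in other ncRNA genes and 0.291 in piRNA genes. The interval of the microRNA genes thus holds the values of snoRNA and other ncRNA genes and lies above that of the genome, with signals up to 86.7 among these summits. The bins of 250 bp up to 2000 bp on either side ranged from 0.22 to 0.455 per kb. The highest of them, from -1500 to -1250 bp (upstream), had an interval of 0.305 to 0.653. It also lies above the genome value and overlaps the interval inside the genes. The summits counted inside include that of let-7, whose annotated span is 1732 bp and whose summit was 929 bp from the mature strand.

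**Figure D5:**
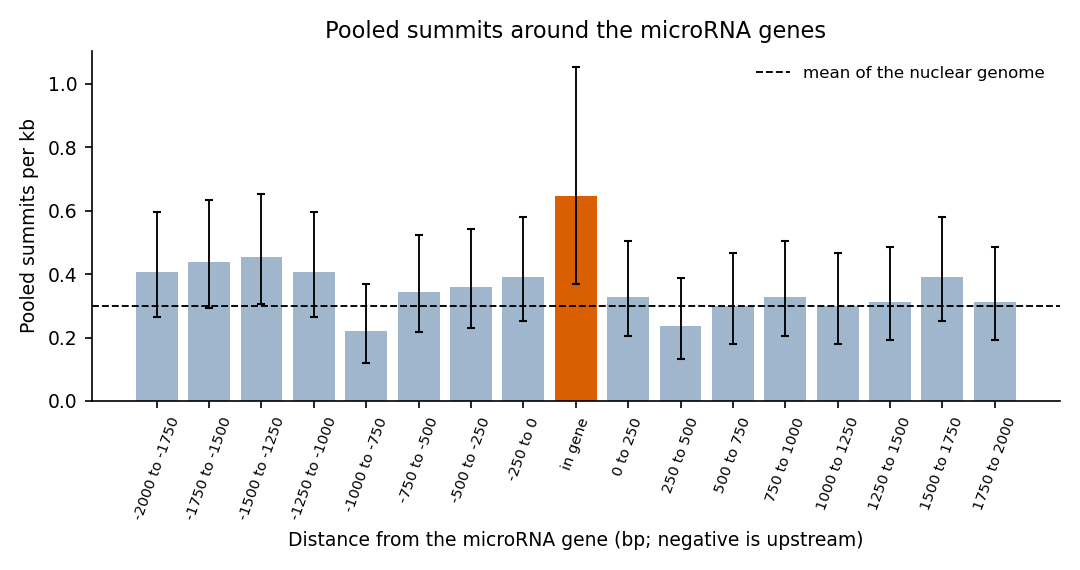
Pooled summits per kb inside the 255 microRNA genes (orange) and in bins of 250 bp upstream (negative) and downstream, with exact Poisson 95% intervals that cover counting error only. The dashed line is the mean of the nuclear genome, 0.299 per kb; the bar inside the genes stands at 0.648.

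The window of 1000 bp decided membership for several genes. The nearest summits just inside it were at mir-63 (995 bp, signal 25.6), mir-8191 (980 bp, 37.4) and mir-240 (977 bp, 25.7). Just outside were those of mir-4813 (1006 bp, 33.8), mir-251 (1023 bp, 46.7) and mir-5548 (1031 bp, 36.9). The values on the sides overlapped, and 46.7 just outside was higher than any of those just inside.

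Other annotated genes near the members' summits were counted, since they share the signal. The summits of 44 members (34.6%) had a coding start within 1000 bp, against 44.4% of all pooled peaks. For 4 of the 127 members a gene for a tRNA, snoRNA, snRNA or rRNA lay within 250 bp, against 2.08% of all pooled peaks. Neither feature was found at 79 members. These counts are per member, so a shared peak is counted more than once, while the shares over the list are per peak. A noncoding RNA gene of the biotype ncRNA, lincRNA or antisense RNA lay within 250 bp of 24 of the 110 separate peaks (21.8%), against 7.07% of all pooled peaks. Of the 255 microRNA genes, 49 overlap a noncoding RNA gene by annotation, and 29 of these (59.2%) were members. Closeness to a noncoding RNA gene is thus in part set by where the microRNA genes lie. Besides mir-1, the summits at mir-71 and mir-124 lay inside a noncoding RNA gene (F16A11.8 and C29E6.11). Those at the mir-35 cluster and mir-80 lay 39 and 109 bp from such a gene. Which of the overlapping or neighbouring genes a peak belongs to was not tested.

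By chromosome, members made up 20 of 33 genes on I, 26 of 49 on II, 20 of 27 on III, 20 of 47 on IV, 13 of 28 on V and 28 of 71 on X. The share was highest on III (74.1%) and lowest on X (39.4%). Over all genes it was also highest on III (73.4%), while on X it was 61.99% and on IV, with its many piRNA genes, it was 47.0%. No test was made of the difference on X.

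The sequence under the members' peaks was searched for the NK-2 class site, to which factors of the class of CEH-24 bind. Within 100 bp of the summit, on both strands, TNAAGTG was present at 8 of 110 separate peaks (7.27%), against 9.08% of all 30000 pooled peaks. The core AAGTG, which TNAAGTG contains, was present at 48 (43.6%), against 36.04%. It lay within 100 bp of the summits at mir-62, mir-80 and the mir-35 cluster, and not at mir-58.1. GTTCGANNC was present at 4 (3.64%), against 2.14%. Mean GC content of the windows was 38.7%, against 35.9%, and 92 of the 110 windows held only runs of 31 bases found once in the genome. A match describes the letters of the window and not a site in use.

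Seeds were shared by 2 or more microRNA genes in 45 cases, and 32 of these groups held a member. In 10 groups every gene was a member and in 22 only some were. Of all 255 microRNA genes 49.8% were members, and no count expected from this share was computed for the groups. Some pairs, such as mir-46 and mir-47, are counted once for each of their arms. The groups with a seed named here ranged from 5 of 5 genes for mir-63, mir-64, mir-65, mir-66 and mir-229, through 7 of 8 for mir-35 to mir-42 and 4 of 6 for GAGAUCA, to 2 of 5 for let-7. Sharing a seed often goes with lying in 1 cluster, so these counts partly repeat shared peaks.

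The mir-51 family, which these genes were separated from, had higher signals at its top. The pooled signal was 271.9 at mir-51 and 224.5 at mir-52, both in the optimal list, 94.1 at mir-53 and 74.05 at mir-54 to mir-56, which share a peak. The highest member here, mir-58.1 at 121.8, lies between mir-52 and mir-53. The difference was not tested, since signal entered the choice.

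Genes of the microRNA machinery and known targets had pooled peaks but none at q-value 0.05 or less. Of 15 processing and Argonaute genes, 9 had a pooled peak within 1000 bp of a coding start, with a median signal of 49.1 and a range from 31.3 to 74.6. Over all 19973 protein-coding genes 50.0% had such a peak, with a median of 37.9, 1.73% had one of q-value 0.05 or less, and 1.12% had an optimal peak. The highest were vig-1, a component of the silencing complex (74.6 pooled, 39.03 and 52.7 in the replicates), ain-1, a GW182 protein (71.1, 31.2 and 62.4), and the Argonaute alg-1 (56.3, 20.2 and 30.5). The summits at ain-1 and alg-1 lay 963 and 983 bp from the start, near the edge of the window. At pash-1 the value was 48.4 and at dcr-1 31.3, while drsh-1 had none. Of 11 known targets 7 had a pooled peak, with a median of 46.5. The highest was lin-14, a lin-4 target, with 58.6 pooled, 30.4 in replicate 1 and 28.6 in replicate 2. The targets hbl-1 and lin-41 had 51.8 and 49.1, and daf-12, let-60, lin-28 and nhl-2 had none.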

How the data were processed

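ChIP-seq peak lists of 2 replicates, a pooled list and an optimal list were used on the ce11 build, which is WBcel235. Per the file headers the authors made the relaxed lists as input for the irreproducible discovery rate procedure, with 1 control file for all. The signal value and the −log10 q-value of each peak are as deposited by the authors; the aligner, the peak caller and the signal's scale are given by no source used here, and depth is unknown. A microRNA gene (Ensembl release 115) took the highest signal among peaks with a summit within 1000 bp, separately per list. Replicate peaks matched a pooled peak at 1 bp or more of overlap. Shares carry Wilson 95% intervals. No enrichment test or adjusted p-value was computed. Motifs were searched in windows of 201 bp.

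Named genes are those with an optimal peak or a pooled q-value of 0.05 or less, the 8 highest intergenic and 8 highest intronic members, 31 well-known genes whatever their values, and 3 on each side of the window limit; mir-64 and its cluster, mir-4925, mir-4923.2 and Y73B6A.17 were added for shared peaks or seeds after their values were seen. Members, lists and alternatives were chosen with earlier results of these data known. The window rule was tested on simulated data. Python 3.11.15, numpy 2.4.6, scipy 1.17.1 and matplotlib 3.10.9 were used.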

Additional observations from a re-analysis of the deposited data

How the results depend on the processing

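The list of members depended on the window and on how deep the pooled list was read. It held 56 genes with a window of 250 bp, 82 with 500 bp and 188 with 2000 bp, and 57 or 14 when only the 10000 or 1000 highest pooled peaks were used. The replicate lists used alone gave 123 to 124. The count at q-value 0.05 or less, 8 in the report, was 3 at 250 bp and at 500 bp, 15 at 2000 bp and 1 at q-value 0.01. It was 2 with replicate 1 alone and 7 with replicate 2 alone, and these were not the same genes. The count with an optimal peak, 4 in the report, was 1 at 250 bp and at 500 bp, 11 at 2000 bp, and 2 without peaks near tRNA, snoRNA, snRNA or rRNA genes. The intergenic share was 66.9% with hosts on the same strand only. The median signal of the members was 41.9 at 250 bp, 41.8 at 500 bp and 42.6 at 2000 bp. Leaving out F09A5.15, an alternative chosen after seeing the data, gave 126 members. Of 58 replicate values, 49 were identical when taken from the peak overlapping the pooled peak. The other 9 (mir-35 to mir-38 and mir-63 in replicate 2, mir-71 and mir-228 in replicate 1, mir-82 in both) were lost, since no overlapping peak gave a value.

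No paired analysis was possible because the samples form 1 group with no second condition. The depth of the libraries is unknown, so a missing peak says only that none was listed. With no untagged group, signal that does not depend on the tagged protein cannot be told apart from binding.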
